A study of Mus musculus with 107 samples.

Results

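Astrocytes and mature oligodendrocytes of the mouse cerebellum were compared through the RNA bound to their ribosomes. The arrays were chosen by their labels: 3 arrays of astrocyte RNA and 3 of mature oligodendrocyte RNA, 6 in all beside 101 other arrays of the series. The RNA came from translating ribosome affinity purification (TRAP): a transgene built on a bacterial artificial chromosome (BAC) puts a tagged ribosomal protein into 1 cell type, and an antibody pulls the tagged ribosomes from a tissue lysate. In the astrocyte group the Aldh1l1 driver carried the tag (line JD130), and in the oligodendrocyte group the Cmtm5 driver did (line JD307), so each population is what 1 driver in 1 line marks. The common comparator was 7 arrays of unbound cerebellar RNA, the RNA left after the pull-down: 1 from the Cmtm5 line, 3 from a Purkinje neuron line (Pcp2, DR168) and 3 from a Bergmann glia line (Septin4, DS152). No cerebellar unbound array of the astrocyte line was used here. In cortex, the same contrast had 4 astrocyte arrays (2 of line JD130 and 2 of line JD133, both Aldh1l1) and 3 oligodendrocyte arrays (line JD307). All groups came from BAC transgenic mice, and the labels give no age, sex or strain and no number of mice per preparation.

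Astrocytes take up glutamate and potassium at synapses, are coupled to each other by gap junctions, and supply neurons with metabolites and lipids. In the cerebellum they include Bergmann glia, whose processes run along Purkinje neuron dendrites, and an Aldh1l1 driver marks these too. Mature oligodendrocytes wrap axons in myelin, a stack of membrane rich in cholesterol and galactolipids that is held together by a small set of abundant proteins. Both cell types arise from neuroepithelial progenitors, and their identities are tied to different transcription factors, among them Sox9 for astrocytes and Olig2 and Sox10 for oligodendrocytes.

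A level here is a log2 intensity of 1 probe set per gene, scaled between groups on 18 control probe sets, and a difference is astrocyte minus oligodendrocyte mean level. A gene was taken as measured from a group mean of 6 (an intensity of 64), and folds against a lower group are given as lower bounds with that group set to 6. The 3 astrocyte arrays were nearly alike, with correlations of 0.997 to 0.998 over 9897 genes, and 18.4% of the 8509 genes at or above 6 had identical values on all 3. The oligodendrocyte arrays correlated at 0.94 to 0.986, with control probe means of 11.08, 10.8 and 12.38, so replicate 3 stood apart. The unbound array of the oligodendrocyte line correlated with the other 6 unbound arrays at 0.954 to 0.97, and those 6 among themselves at 0.971 to 0.992. Astrocyte arrays correlated with oligodendrocyte arrays at 0.623 to 0.633. The submitters normalized each TRAP group on its own, and each group is 1 line, so cell type, line and normalization set cannot be told apart.

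The drivers and markers were examined first. Aldh1l1, the folate enzyme whose promoter drives the astrocyte tag, had levels of 10.08, 10.04 and 10.04 in astrocytes, against 7.07, 7.04 and 4.28 in oligodendrocytes and 6.88 to 8.51 in unbound RNA. Astrocyte and oligodendrocyte arrays did not overlap, and the difference was 3.92 (SE 0.37, limma adjusted p = 1.6e-16), or 15.1-fold. The SE and p-value use the spread within groups pooled over all arrays of the series. The SD of Aldh1l1 itself was 0.02 in astrocytes and 1.6 in oligodendrocytes. Without oligodendrocyte replicate 3 the Aldh1l1 difference was 2.51. Mbp, myelin basic protein, had 13.13, 12.78 and 13.09 in astrocytes, against 15.58, 15.46 and 15.68 in oligodendrocytes and 14.52 to 15.44 in unbound RNA. It was thus lower in astrocytes by a difference of -2.58 (SE 0.34, adjusted p = 1.4e-10), or 5.97-fold, while remaining well above the minimum in both. The oligodendrocyte driver behaved differently: Cmtm5, a membrane protein gene, had 11.79, 12.44 and 12.26 in astrocytes, against 12.44, 11.92 and 13.17 in oligodendrocytes and 9.27 to 10.64 in unbound RNA. Its cell type arrays overlapped (difference -0.35, SE 0.40, adjusted p = 0.43), and both populations were above unbound RNA, by 2.40 in astrocytes and 2.74 in oligodendrocytes.

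Promoter sequences are shown for 4 genes of the myelinating oligodendrocyte list and for the astrocyte driver, because the first 3 separate the populations by over 5 log2 units, Cnp does not separate them, and Aldh1l1 defines the astrocyte group. Each is the 250 bases before the RefSeq gene start (GRCm38.p6), written 5′ to 3′ on the gene's strand. Capitals mark matches, on either strand, to 5 short motifs: the SOX motifs AACAAAG and AACAATG, the E-boxes CAGCTG and CATCTG (the letters basic helix-loop-helix factors such as Olig2 bind), and the NFI half-site TTGGCA.
Mobp: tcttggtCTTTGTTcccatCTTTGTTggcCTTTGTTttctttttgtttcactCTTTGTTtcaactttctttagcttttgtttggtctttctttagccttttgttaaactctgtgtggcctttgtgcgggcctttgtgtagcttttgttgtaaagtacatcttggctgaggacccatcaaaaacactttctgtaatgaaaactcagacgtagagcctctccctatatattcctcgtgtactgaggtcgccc
Opalin: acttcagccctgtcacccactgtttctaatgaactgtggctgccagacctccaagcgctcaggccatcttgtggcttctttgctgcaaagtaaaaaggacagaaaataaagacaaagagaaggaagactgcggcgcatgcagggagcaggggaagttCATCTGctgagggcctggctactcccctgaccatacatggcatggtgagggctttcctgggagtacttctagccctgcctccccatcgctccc
Ninj2: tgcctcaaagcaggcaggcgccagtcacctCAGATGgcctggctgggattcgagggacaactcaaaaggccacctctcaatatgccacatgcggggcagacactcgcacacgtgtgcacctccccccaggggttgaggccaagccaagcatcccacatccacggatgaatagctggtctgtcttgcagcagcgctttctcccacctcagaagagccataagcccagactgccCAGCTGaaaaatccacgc
Cnp: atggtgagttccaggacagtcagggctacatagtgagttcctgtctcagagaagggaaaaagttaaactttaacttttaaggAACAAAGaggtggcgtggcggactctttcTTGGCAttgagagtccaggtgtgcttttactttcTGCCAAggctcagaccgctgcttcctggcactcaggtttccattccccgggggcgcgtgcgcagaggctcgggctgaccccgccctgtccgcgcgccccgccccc
Aldh1l1: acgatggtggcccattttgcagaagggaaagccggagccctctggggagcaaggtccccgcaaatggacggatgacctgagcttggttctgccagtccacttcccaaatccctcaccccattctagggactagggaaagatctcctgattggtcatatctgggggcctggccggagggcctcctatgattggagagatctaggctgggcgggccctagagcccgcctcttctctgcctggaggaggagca
The Mobp window (chr9:120149492-120149741, plus strand) held AACAAAG 4 times, each on the opposite strand as CTTTGTT. Opalin (chr19:41077114-41077363, minus strand) held CATCTG once, 93 bases before the start. Ninj2 (chr6:120093130-120093379, plus strand) held CATCTG in reverse at 220 bases and CAGCTG at 18 bases before the start. Cnp (chr11:100574689-100574938, plus strand) held AACAAAG once and TTGGCA on both strands, while Aldh1l1 (chr6:90550543-90550792, plus strand) held no match. In the same window, 4.99% of all 27025 promoters held AACAAAG, 3.36% AACAATG, 12.8% CAGCTG, 14.5% CATCTG and 12.5% TTGGCA. Of the 18 myelinating oligodendrocyte genes with a RefSeq promoter, 7 (38.9%) held CATCTG, 3 (16.7%) CAGCTG, 2 (11.1%) AACAAAG, 1 (5.56%) TTGGCA and none AACAATG. Of 22 astrocyte genes 2 (9.09%) held CATCTG, 2 (9.09%) CAGCTG and 3 (13.6%) TTGGCA, and none held AACAAAG or AACAATG. Over all genes called, CATCTG was in 11.4% of promoters of genes higher in astrocytes and in 12.4% of those of genes higher in oligodendrocytes, beside 10.4% of those of all genes tested. AACAATG was in 1.73% of promoters of genes higher in astrocytes and in 4.78% of those of genes higher in oligodendrocytes, beside 2.03% of those of all genes tested. These matches are letters in a window and not binding sites.

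Of the 4 myelin genes, Mobp, a structural protein of compact myelin, had levels of 8.57, 8.48 and 8.59 in astrocytes, against 14.47, 14.29 and 14.44 in oligodendrocytes (difference -5.86, adjusted p = 1.6e-20). Opalin, a membrane protein of mature oligodendrocytes, was at 4.46 on every astrocyte array, against 13, 12.50 and 12.57 in oligodendrocytes, at least 103-fold lower. Ninj2, an adhesion molecule, was at 2.55 on every astrocyte array, against 11.02, 10.27 and 11.74 in oligodendrocytes, with unbound RNA at 2.44 to 2.59. For these genes no array of one population reached the other. Cnp, a myelin-associated phosphodiesterase, was the exception, with 15.06, 15.00 and 15.03 in astrocytes, against 15.05, 14.83 and 14.96 in oligodendrocytes (difference 0.08, SE 0.24, adjusted p = 0.75).

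**Figure D1:**
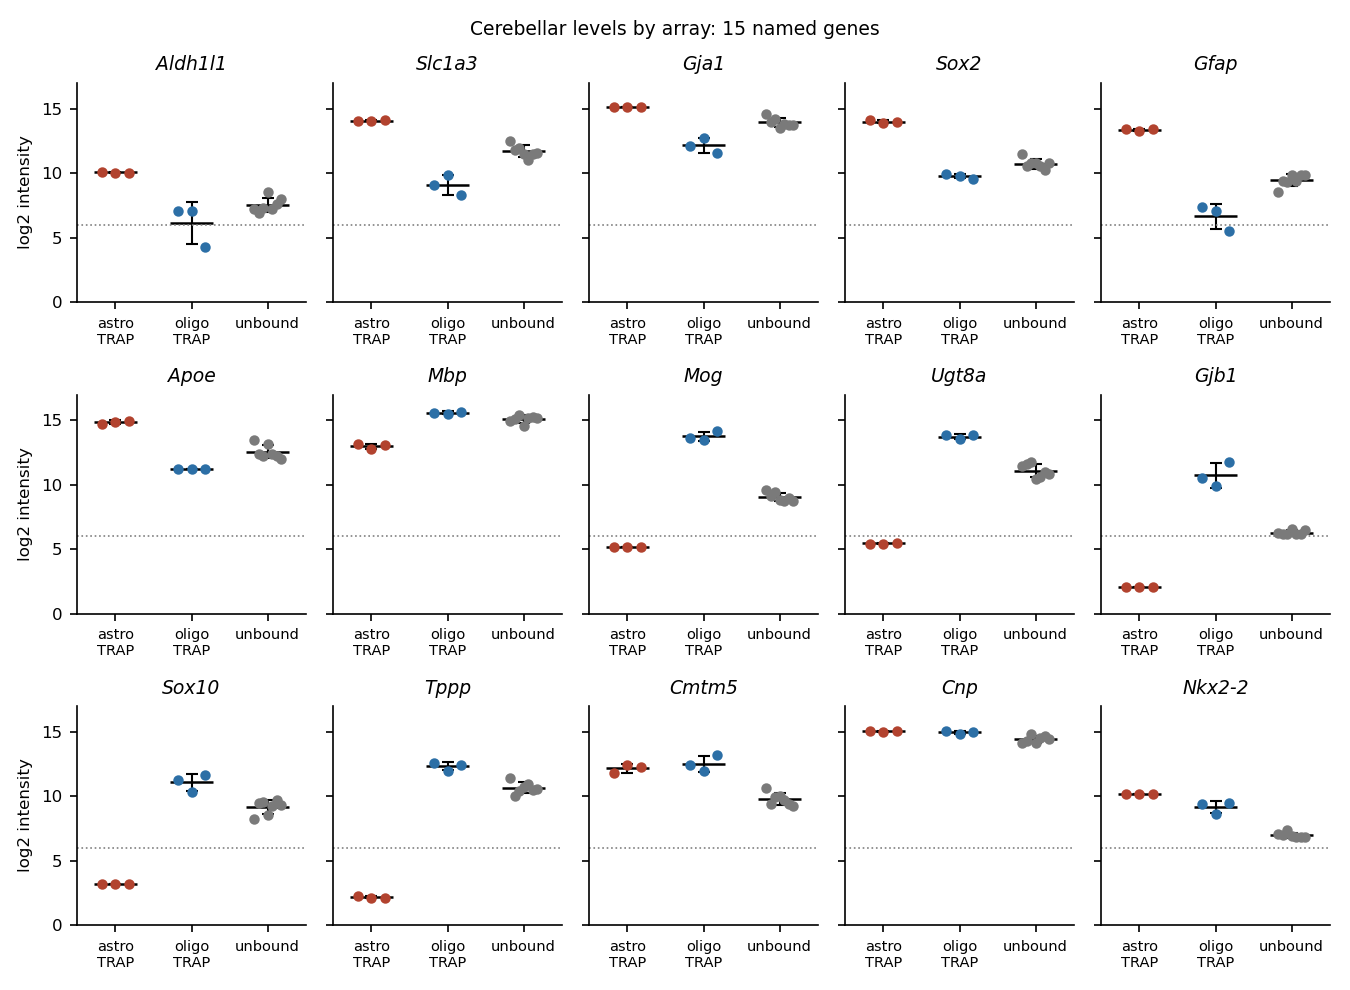
Log2 intensity (vertical axis) of 15 genes on the 3 astrocyte TRAP, 3 oligodendrocyte TRAP and 7 unbound arrays of cerebellum; points are arrays, black lines the mean and SD, and the dotted line the minimum level of 6. Aldh1l1 and the other genes of the top row, with Apoe, separate upward in astrocytes, Mbp to Tppp separate upward in oligodendrocytes, and Cmtm5, Cnp and Nkx2-2 lie close together.

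Across all genes, 4234 could be tested between the populations, that is, they were measured in one of them and higher there than in unbound RNA. Of these, 1937 (45.7%) were called higher in astrocytes and 771 (18.2%) lower, at an adjusted p under 0.05 and at least 2-fold, and the median difference over all tested genes was 0.84. The arrays of the populations did not overlap for 2535 genes (59.9%) higher in astrocytes and 1075 (25.4%) lower. Because the median lay above 0, each gene list below is read against these shares and this median. A gene enters the test through the population where it is high, so the counts of a list describe its tested members only. With quantile normalization in place of the control probes, 2564 genes were higher and 1115 lower of 6533 tested and the median was 0.56. The 2 settings shared 1812 higher and 704 lower calls, with none of opposite sign. The balance of calls also moved with the genes admitted and with 1 array. Without the requirement of TRAP over unbound RNA 2424 genes were higher and 2726 lower, and without oligodendrocyte replicate 3 the counts were 1552 higher and 1321 lower.

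**Figure D2:**
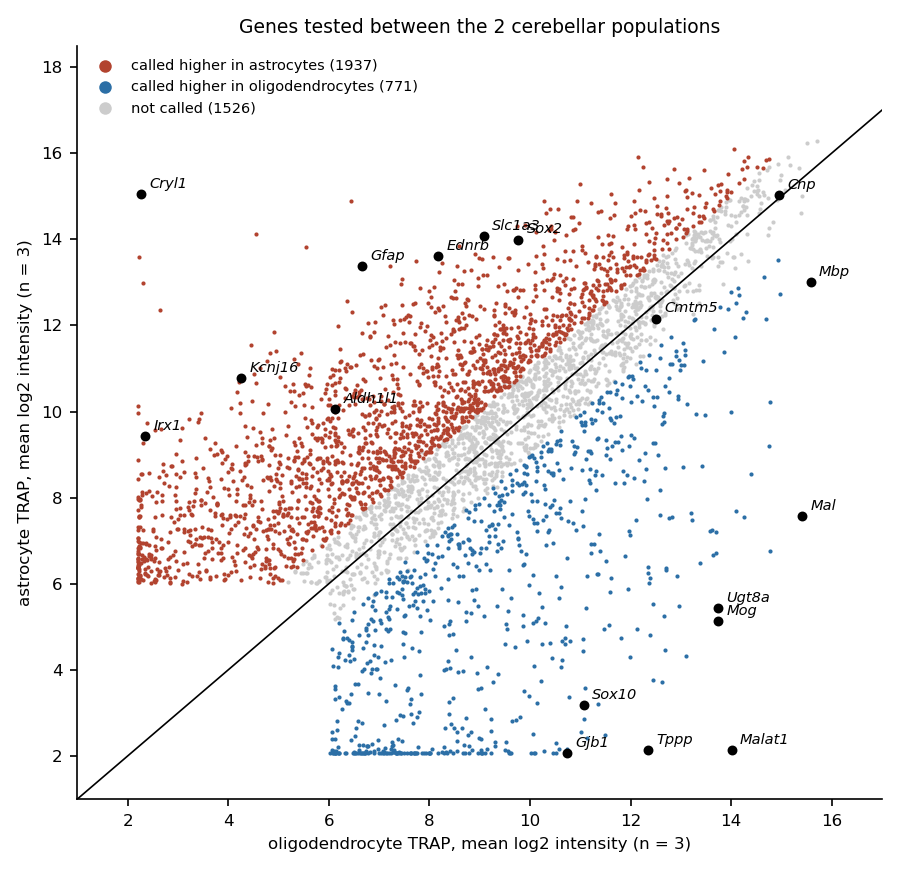
Mean log2 intensity of the 4234 tested genes in oligodendrocyte TRAP (horizontal axis, n = 3) and astrocyte TRAP (vertical axis, n = 3), coloured by call, with the line of equal levels; 18 genes are named. The 1937 genes called higher in astrocytes lie above the line and the 771 called higher in oligodendrocytes below it.

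The markers of both cell types moved with their labels. Of the 23 tested genes of the astrocyte list, 21 were higher in astrocytes and none lower (median 3.88). Slc1a3, the glial glutamate transporter GLAST, had 14.03, 14.06 and 14.12 in astrocytes, against 9.08, 9.85 and 8.31 in oligodendrocytes, 31.8-fold higher. Gfap, the astrocyte intermediate filament, had 13.41, 13.29 and 13.41 in astrocytes, against 7.36, 7.07 and 5.55 in oligodendrocytes, 104-fold higher. The members not called were Glul, glutamine synthetase (difference 0.46, adjusted p = 0.11), and S100b, a calcium-binding protein (0.96, adjusted p = 0.00019), and both were above unbound RNA in both populations. Of the 22 tested genes of the myelinating oligodendrocyte list, 20 were lower in astrocytes and none higher (median -6.53), and Cnp and Cmtm5 were those not called. Mog, a protein of the outer myelin surface, was at 5.14 on every astrocyte array, against 13.65, 13.43 and 14.15 in oligodendrocytes, at least 214-fold lower. Mal, a raft protein of myelin, had 7.53, 7.53 and 7.64 in astrocytes, against 15.43, 15.33 and 15.47 in oligodendrocytes, 230-fold lower. Bergmann glia markers were with the astrocytes, 8 of 9 higher (median 3.67), led by Wif1, a secreted WNT inhibitor, at 9.29, 9.61 and 9.79 in astrocytes, against 2.55 on all oligodendrocyte arrays. Hopx, a homeodomain-only protein, was not called (0.43, adjusted p = 0.15).

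RNA of other cells was present in unequal amounts. The summed level of 12 pan-neuronal genes was 14.08 to 14.16 in astrocytes, against 14.86 to 15.90 in oligodendrocytes and 16.85 to 17.37 in unbound RNA. For the 12 granule and unipolar brush neuron genes it was 13.07 to 13.18 in astrocytes, against 14.90 to 15.92 in oligodendrocytes and 16.79 to 17.34 in unbound RNA. Purkinje neuron genes (8 measured) summed to 14.29 to 14.30 in astrocytes, against 15.85 to 16.82 in oligodendrocytes and 17.29 to 18.06 in unbound RNA. Neuronal RNA was thus lowest in the astrocyte arrays on every list, and oligodendrocyte replicate 3 was the lowest of its group on each. The inhibitory interneuron sum was 9.67 to 9.83 in astrocytes, against 12.14 to 13.49 in oligodendrocytes. The microglia sum was 8.25 to 8.27 in astrocytes, against 9.30 to 9.87 in oligodendrocytes and 11.14 to 11.9 in unbound RNA. Of 14 microglial genes, 2 reached 6 in astrocytes, 3 in oligodendrocytes and 4 in unbound RNA, while P2ry12, Itgam and Cd68 were at the lowest values of the arrays in both populations. Choroid plexus genes summed to 15.61 to 16 in astrocytes, against 15.01 to 15.30 in oligodendrocytes, oligodendrocyte progenitor genes to 10.33 to 10.62, against 9.36 to 9.54, and vessel genes to 8.38 to 8.57, against 8.03 to 8.81. In unbound RNA they summed to 15.83 to 16.49, 10.27 to 10.84 and 9.46 to 10.4, in the same order. The astrocyte sums of choroid plexus and progenitor genes thus overlapped those of unbound RNA. Of 9 progenitor genes only 2 reached 6 in astrocytes and 3 in oligodendrocytes, and of 11 vessel genes 2 and 1. Over all 9 progenitor genes the median difference was -1.47, opposite to the sum, so these sums rest on few genes. The sums do not count cells, since the tag pulled the RNA from a tissue lysate, and how RNA of other cells entered it was not tested. Of the neuronal and microglial lists only Uchl1, a ubiquitin hydrolase abundant in neurons, could be tested, at 6.19, 6.28 and 6.12 in astrocytes, against 9.86, 9.66 and 10.67 in oligodendrocytes. The part of this RNA in the differences called lower in astrocytes was not tested.

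Genes were also picked by the size of the fitted difference, 12 each way; nearly all were under 6 in the lower population, so their differences have no order. The 12 toward oligodendrocytes included 4 of the myelinating oligodendrocyte list, Hapln2, Pllp, Mog and Ninj2, and the connexin Gjb1. Tppp, a tubulin polymerization protein, had 2.23, 2.10 and 2.10 in astrocytes, against 12.61, 11.97 and 12.45 in oligodendrocytes, at least 81.1-fold lower. Hapln2, a link protein of the nodal matrix, was at least 45.3-fold lower, and Pllp, the membrane protein plasmolipin, at least 86.7-fold lower in astrocytes. Prr5l (a regulator of mTORC2), Tmem125, Dock10 (a guanine nucleotide exchange factor), Ddc (aromatic amino acid decarboxylase) and Ctsk (the protease cathepsin K) were at least 98.8-fold, 138-fold, 35.2-fold, 26.7-fold and 22.9-fold lower, in that order of names. Malat1, a nuclear noncoding RNA, had 2.24, 2.07 and 2.07 in astrocytes, against 14.81, 14.47 and 12.75 in oligodendrocytes and 12.26 to 16.58 in unbound RNA, at least 258-fold lower in astrocytes. Oligodendrocyte and unbound levels of Malat1 overlapped (oligodendrocyte minus unbound 0.52). Tppp was at or above 6 in 22 of 24 TRAP populations of the series, up to 12.74 in layer 5a cortical neurons. Malat1 was so in 18, Dock10 in 17 and Ddc in 16, and the rest of the 12 in 4 (Ninj2) to 15 (Mog). The summed level of 8 nuclear noncoding RNAs, a list chosen after the values were seen, was 7.38 to 7.49 in astrocytes, against 13.63 to 15.04 in oligodendrocytes and 14.82 to 17.04 in unbound RNA.

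Among the 12 genes picked toward astrocytes, the unbound array of the oligodendrocyte line stood out. Cryl1, a crystallin-like dehydrogenase, had 15.00, 15.08 and 15.05 in astrocytes, against 2.22, 2.35 and 2.22 in oligodendrocytes, at least 528-fold higher. Its unbound level was 6.28 in the oligodendrocyte line, against 12.62 to 14.70 on the other 6 arrays. Ptbp1, a splicing regulator, had 13.59 on every astrocyte array, against 2.21, 2.21 and 2.23 in oligodendrocytes, and its unbound level was 7.95 in the oligodendrocyte line, against 11.35 to 13.38 elsewhere. The unbound RNA of the oligodendrocyte line was thus low for these genes as the oligodendrocyte TRAP RNA was. Ptprk (a receptor phosphatase), Pik3cd (a lipid kinase subunit), E2f5 (a cell cycle transcription factor), Depp1 and 1700003E16Rik had the same pattern. Of the 12 genes, 7 (58.3%) were over 2 log2 units below all other unbound arrays in this line's unbound array. This held for 9 (0.213%) of all 4234 tested genes. None of the 12 toward oligodendrocytes was over 2 log2 units above the other unbound arrays there, beside 24 (0.567%) of all tested genes. For the astrocyte line no cerebellar unbound array was used, so a like pattern of that line could not be seen. Cryl1 was at or above 6 in 17 of 24 TRAP populations of the series, up to 15.52 in Cort+ cortical neurons, and Ptbp1 in 15. Mixed oligodendroglia had Cryl1 at 14.48 in cerebellum and 4.27 in cortex, and mature oligodendrocytes of cortex (line JD307) had it at 3.44. Ptbp1 was at 12.94, 2.18 and 2.22 in these populations, in the same order. A low level of these genes was thus not shared by all oligodendroglial populations of cerebellum. Line and cell type cannot be told apart for any gene here, and for these 7 genes the unbound RNA of the oligodendrocyte line was low as well. The other 5 of the 12 were Samhd1, a nucleotide phosphohydrolase (at least 81.7-fold higher), Cacng7, an AMPA receptor auxiliary subunit (at least 15.7-fold), Casp12, a caspase (at least 13.3-fold), Irx1, a homeobox factor (at least 10.8-fold), and Dmp1, a matrix protein (at least 46.4-fold). Leaving out the genes that stood apart in this array, an alternative chosen after seeing the data, gave 1920 higher and 764 lower calls.

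**Figure D3:**
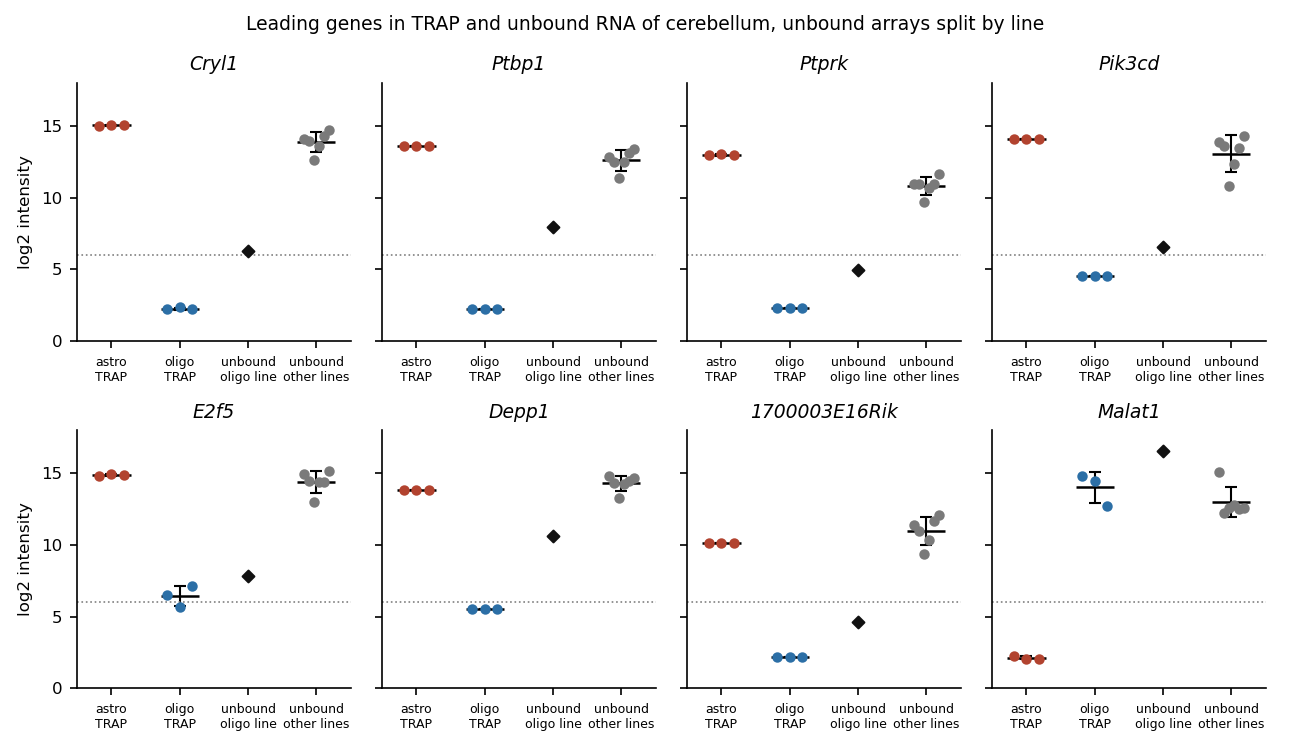
Log2 intensity (vertical axis) of the 7 genes that stood apart in the oligodendrocyte line, and of Malat1, in astrocyte TRAP, oligodendrocyte TRAP, the unbound array of the oligodendrocyte line (diamond) and the 6 unbound arrays of other lines; bars are mean and SD, and the dotted line is the minimum of 6. For the 7 genes the diamond lies below the grey points, as with Cryl1 at 6.28 against 12.62 to 14.70.

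Transport and coupling genes were next. Of 8 tested genes of glutamate and GABA uptake and recycling, 7 were higher in astrocytes and none lower (median 3.37), among them Slc1a2, the glutamate transporter GLT-1 (3.49), and Slc38a3, a glutamine transporter (3.74). Of 10 genes of ion and water homeostasis, 8 were higher and 2 lower (median 2.26). Kcnj16, an inward rectifier potassium channel subunit, had 10.80, 10.71 and 10.80 in astrocytes, against 4.26 on every oligodendrocyte array, at least 27.3-fold higher. Aqp4, the water channel (3.67), Slc4a4, a sodium bicarbonate cotransporter (3.14), and Mlc1, a membrane protein of astrocyte endfeet (4.32), were higher too. The 2 lower genes were Car2, carbonic anhydrase (-2.54), and Clcn2, a chloride channel (-2.25).

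Connexins, the gap junction proteins, divided by cell type, 3 higher in astrocytes and 2 lower of 5 tested. Gja1 (connexin 43) had 15.15 on every astrocyte array, against 12.14, 12.74 and 11.59 in oligodendrocytes, 7.93-fold higher. Gjb6 (connexin 30) had 12.99, 13.33 and 13.16 in astrocytes, against 8.84, 9.37 and 8.95 in oligodendrocytes, 17.2-fold higher. Gjb2 (connexin 26) was at 8.39 on every astrocyte array, against 6.99, 7.74 and 6.99 in oligodendrocytes, and its difference of 1.14 fell to 0.54 and was not called without oligodendrocyte replicate 3. The oligodendrocyte connexins went the other way. Gjb1 (connexin 32) was at 2.06 on every astrocyte array, against 10.51, 9.90 and 11.79 in oligodendrocytes, at least 26.6-fold lower. Gjc3 (connexin 29) was at 5.97 on every astrocyte array, against 10.27, 9.50 and 10.19 in oligodendrocytes, at least 15.9-fold lower, with unbound RNA at 2.44 to 2.81.

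Lists of metabolic genes were counted. Of 16 tested genes of fatty acid oxidation, 14 were higher and none lower (median 2.25). Acsbg1, an acyl-CoA synthetase, differed by 4.35, Acaa2, a thiolase, by 3.42, and Cpt1a, the gate of fatty acid entry into mitochondria, had 9.38, 8.96 and 8.95 in astrocytes, against 6.12, 6.12 and 4.61 in oligodendrocytes. Crat and Cpt2, both carnitine acyltransferases, were not called (0.66 and 0.61). Of 12 genes of glycogen, glycolysis and lactate, 9 were higher and none lower (median 1.30). Glycogen genes led, with Ppp1r3c, a glycogen-targeting phosphatase subunit, at 12.19, 12.43 and 12.43 in astrocytes, against 8.26, 9.12 and 7.22 in oligodendrocytes, and Pygm, a glycogen phosphorylase, different by 3.94. The lactate transporter Slc16a1 was not called (-0.08). Of 10 genes of serine, glycine and folate metabolism, 6 were higher and 1 lower (median 2.05, but 0.69 over all 13 members on the array), a share of higher genes near that of all tested genes. Srr, serine racemase, had 11.03, 11.03 and 10.87 in astrocytes, against 5.75, 6.21 and 6.43 in oligodendrocytes, and Gldc, of the glycine cleavage system, differed by 3.88. Mthfd2, a mitochondrial folate enzyme, was the lower one (-2.28), and the serine synthesis genes Psat1 (-0.15) and Phgdh (0.69) were not called.

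Lipid genes did not move as one. Of 15 tested genes of myelin lipid synthesis, 8 were lower in astrocytes and 2 higher (median -1.97). Ugt8a, which makes galactosylceramide, had 5.43, 5.43 and 5.47 in astrocytes, against 13.85, 13.53 and 13.83 in oligodendrocytes, at least 213-fold lower. Gal3st1, which sulfates it, was at least 26.4-fold lower, and Fa2h, which hydroxylates its fatty acids, 37.9-fold lower. The fatty acid elongase Elovl7 differed by -4.92. The 2 higher genes were the desaturases of polyunsaturated fatty acids: Fads1 had 12.18, 12.29 and 12.48 in astrocytes, against 8.26, 8.15 and 7.96 in oligodendrocytes, 18.2-fold higher, and Fads2 differed by 3.87. Of 13 genes of cholesterol synthesis, 4 were lower in astrocytes, 1 was higher and 8 were not called (median -0.61). Fdps (-1.74), Ebp (-1.27), Dhcr7 (-1.18) and Sc5d (-1.14) were the lower ones, Tm7sf2, a sterol reductase, was the higher one (3.60), and Hmgcs1 (-0.31) and Fdft1 (0.60) were not called. Sc5d turned to 2.25 when all its probe sets were averaged, so its direction rests on the probe set. Of 5 genes of lipoproteins and cholesterol export, 3 were higher and 1 lower (median 2.69, but -0.10 over all 11 members on the array). Apoe, the main brain apolipoprotein, had 14.68, 14.88 and 14.96 in astrocytes, against 11.21, 11.24 and 11.21 in oligodendrocytes, 12.3-fold higher. Apod, a lipocalin, had 9.96, 9.99 and 9.99 in astrocytes, against 13.81, 13.48 and 14.70 in oligodendrocytes, 16.2-fold lower.

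The myelinating process and its contact with the axon were marked by oligodendrocyte genes. Of 11 tested axon-glia contact genes, 8 were lower in astrocytes and 1 higher (median -3.51). Cldn11, the tight junction protein of myelin, differed by -6.91 and Ermn, an actin-linked myelin protein, by -6.71. The higher gene was Cadm4, an adhesion molecule (1.69), and Omg (0.95) and Nfasc (0.81) were not called. Of 10 cytoskeleton genes, 6 were lower and 2 higher (median -2.56). Stmn4, a microtubule regulator, had 6.76, 6.41 and 6.81 in astrocytes, against 13.88, 13.17 and 13.88 in oligodendrocytes, 126-fold lower, and Anln, a septin-binding protein, differed by -6.36 and Gsn, an actin-severing protein, by -4.69. The 2 higher genes were Fyn, a kinase of myelination (1.17), and Septin4, the Bergmann glia driver (1.01). Both fell under 2-fold and were not called without oligodendrocyte replicate 3, at 0.65 for Fyn and 0.58 for Septin4.

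Of 9 tested genes of matrix and secreted synapse organizers, 8 were higher in astrocytes (median 3.5, but 1.03 over all 20 members on the array). Among the 8 were Bcan, the proteoglycan brevican (4.21), the glypicans Gpc5 (3.91) and Gpc4 (3.85), and Mfge8, a phagocytosis bridge (3.59). Hapln2 was the lower one. Of 8 iron, metal and glutathione genes, 4 were higher, 1 was lower and 3 were not called (median 0.63, below the 0.84 of all tested genes, and -0.35 over all 15 members on the array). The higher ones were Gstm1, a glutathione transferase (3.51), and the metallothioneins Mt3 (3.48), Mt2 (2.33) and Mt1 (1.49). Fth1, the ferritin heavy chain, was lower, at 12.61, 12.76 and 12.85 in astrocytes, against 14.89, 14.90 and 15.15 in oligodendrocytes. Those not called were Gpx4 (-0.74), a glutathione peroxidase, Gss (-0.36), glutathione synthetase, and Gstm5 (-0.23), a glutathione transferase. Fam107a, Timp4 and Sod1 were the brightest probe sets called higher in astrocytes (difference 2.04, 3.77 and 1.56), and Mbp, Mal and Fth1 the brightest called higher in oligodendrocytes.

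**Figure D4:**
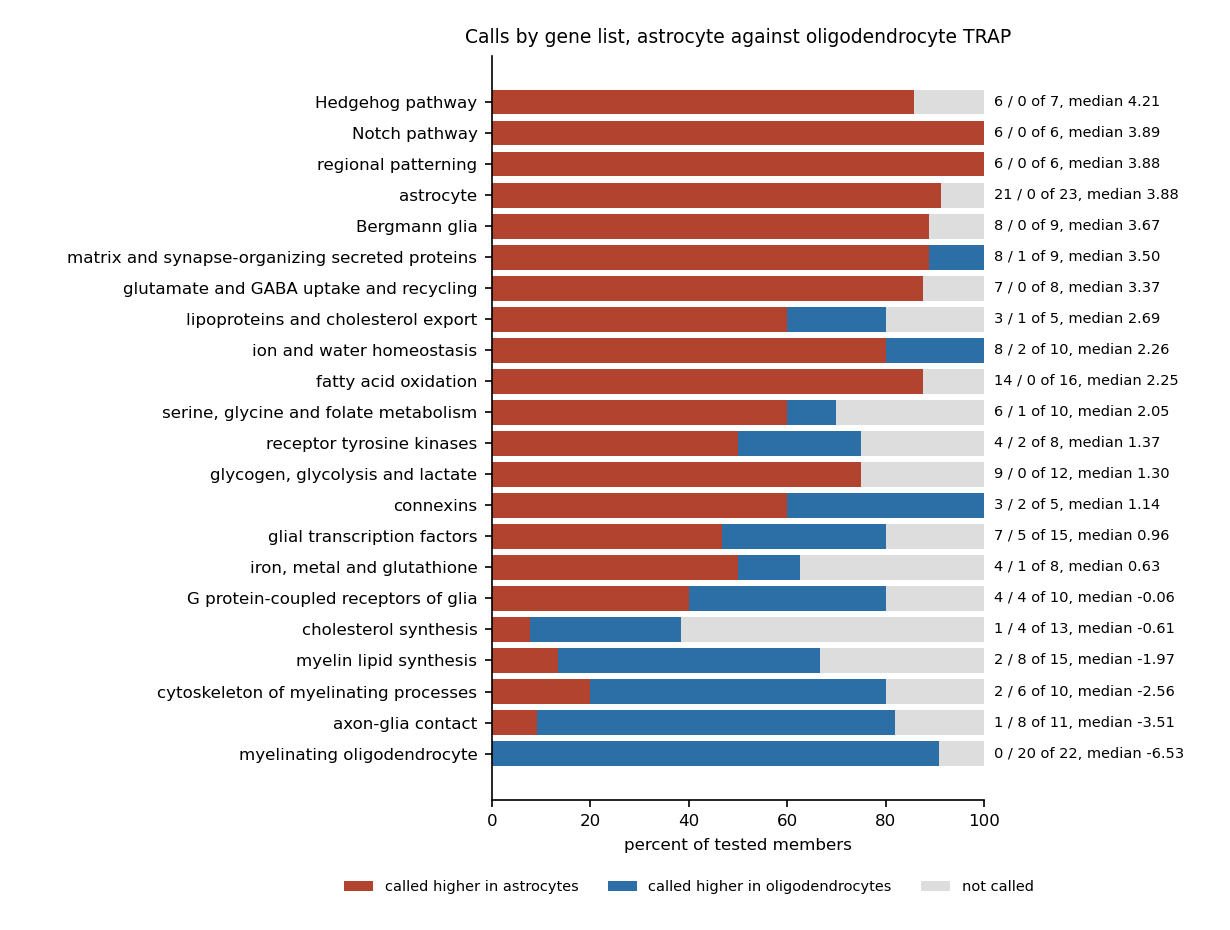
Percent of tested members of each gene list (rows; lists with at least 5 tested members) called higher in astrocytes, called higher in oligodendrocytes or not called, with the counts and the median difference at the right. Rows run by median, with the astrocyte list (21 higher, 0 lower of 23) near the top and the myelinating oligodendrocyte list (0 higher, 20 lower of 22) at the bottom, and cholesterol synthesis (1 higher, 4 lower of 13) is mostly not called.

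Of 15 tested glial transcription factors, 7 were higher in astrocytes and 5 lower (median 0.96). The share of higher genes and the median were near the 45.7% and 0.84 of all tested genes. Sox2, a factor of neural progenitors and astrocytes, had 14.11, 13.86 and 13.99 in astrocytes, against 9.94, 9.79 and 9.58 in oligodendrocytes, 18.6-fold higher. Tcf7l2 (4.09), a WNT effector, Rorb (3.91), a nuclear receptor, and Id3 (3.59), an inhibitor of helix-loop-helix factors, were higher too. Sox10 was at 3.19 on every astrocyte array, against 11.23, 10.31 and 11.66 in oligodendrocytes, at least 33.6-fold lower. Olig2 was at 2.15 on every astrocyte array, against 9.31, 8.53 and 10.65 in oligodendrocytes, at least 11.3-fold lower. Nkx6-2 (-8.22), a homeodomain factor, and Myrf (-7.19), the regulator of myelin genes, were lower as well. Nkx2-2, known as a factor of the oligodendrocyte lineage, was at 10.14 on every astrocyte array, against 9.43, 8.64 and 9.49 in oligodendrocytes and 6.80 to 7.36 in unbound RNA. Its difference of 0.96 was just under 2-fold (adjusted p = 3e-06), and both populations were above unbound RNA, by 3.17 in astrocytes and 2.21 in oligodendrocytes. Of 6 tested regional patterning genes all 6 were higher in astrocytes (median 3.88, but 0.75 over all 19 members on the array). They were Irx1 (7.08), Irx5 (5.78), Pax3 (4.58) and Irx2 (3.18), with Irx3 and Nr2f1. The cerebellar genes Zic1 and En2 were below unbound RNA in both populations and were not tested.

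Signalling genes were counted by pathway. Of 7 tested Hedgehog genes, 6 were higher in astrocytes and none lower (median 4.21). The transcription factor Gli3 had 9.30, 9.07 and 9.20 in astrocytes, against 5.16, 5.02 and 2.31 in oligodendrocytes, and the coreceptor Gas1 had 13.31, 13.38 and 13.42, against 8.15, 9.02 and 8.44. Hhip, a Hedgehog-binding protein, was not called (0.83). Of 15 Notch genes on the array 6 could be tested, and these 6 were higher in astrocytes (median 3.89, against 1.58 over all 15), among them the receptor Notch3 (4.52), the glycosyltransferase Lfng (4.95) and the target Hes1 (4.43). The summed level of the whole Notch list was nevertheless lower in astrocytes, at 12.34 to 12.36, against 12.56 to 13.49 in oligodendrocytes and 14.28 to 14.97 in unbound RNA. By array the oligodendrocyte sums were 12.91, 13.49 and 12.56, beside pan-neuronal sums of 15.47, 15.9 and 14.86. The part of neuronal RNA in the Notch sum was not tested. Of 8 receptor tyrosine kinases, 4 were higher and 2 lower, a share of higher genes near the 45.7% of all tested genes. The median was 1.37, but -0.06 over all 15 members on the array and -0.05 without oligodendrocyte replicate 3. Axl, a TAM receptor, had 7.62, 8.05 and 8.15 in astrocytes, against 2.25 on every oligodendrocyte array, and Erbb3, a neuregulin receptor, was at 2.26 on every astrocyte array, against 8.62, 8.61 and 8.85 in oligodendrocytes. Tyro3, another TAM receptor, went with Erbb3 (-3.06). Of 10 G protein-coupled receptors, 4 were higher, a share near that of all tested genes, and 4 lower (median -0.06). Ednrb, an endothelin receptor, had 13.61, 13.60 and 13.61 in astrocytes, against 8.24, 8.88 and 7.42 in oligodendrocytes, 43.0-fold higher. The sphingosine phosphate receptors divided, S1pr1 at 10.56, 11.32 and 11 in astrocytes, against 6.34, 6.48 and 5.78 in oligodendrocytes, and S1pr5 at 6.32 on every astrocyte array, against 13, 12.25 and 12.89 in oligodendrocytes. Gpr17 (-5.30) and Lpar1 (-1.39), receptors of the oligodendrocyte lineage, and Gpr37 (-3.58) were lower, and Gpr37l1 (3.88) was higher.

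Each population was then set against unbound cerebellum. These comparisons share the unbound arrays, so their values stand side by side only. In astrocytes 1705 of 10424 genes were above unbound RNA (16.4%) and 5064 below (48.6%), with a median of -0.93, and in oligodendrocytes 860 of 10214 were above (8.42%) and 5440 below (53.3%), with a median of -1.10. Without oligodendrocyte replicate 3, 1225 genes were above and 3266 below in oligodendrocytes. With quantile normalization the split was 3356 above and 2987 below in astrocytes, and 1992 and 2418 in oligodendrocytes. Of the astrocyte list, 19 of 23 genes were above unbound RNA and none below in astrocytes (median 2.06), and 3 were above and 18 below in oligodendrocytes (median -1.69). Of the myelinating oligodendrocyte list, 1 of 21 was above and 16 below in astrocytes (median -3.16), and 20 of 22 were above and none below in oligodendrocytes (median 2.80). Pan-neuronal genes were below in both, 11 of 12 in astrocytes (median -4.40) and 10 of 12 in oligodendrocytes (median -1.91). Mbp was below unbound RNA in astrocytes (-2.09) and not called in oligodendrocytes (0.49, highest unbound array 15.44). The 5 genes picked for each population by their gain over unbound RNA were under the minimum of 6 there, so their gains are lower bounds with no order among them. In oligodendrocytes Smco3 was at least 41.2-fold, Ninj2 at least 32.3-fold, 1700063D05Rik at least 21.8-fold, Tnni1, a troponin, at least 17.3-fold and Gjc3 at least 15.9-fold above unbound RNA. In astrocytes Med9os was at least 15.9-fold, Tcl1b3 at least 15.8-fold, Tst, a sulfur transferase, at least 14.4-fold, Itgb3bp, a centromere protein, at least 8.94-fold and Cpsf4l at least 7.39-fold above. Tcl1b3 and Itgb3bp were also above unbound RNA in oligodendrocytes, at least 5.06-fold and 6.87-fold.

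The cerebellar contrast was then compared with the same contrast in cortex. The groups were normalized apart and the cortical astrocyte arrays include line JD133, so region, line and normalization set cannot be told apart. Over 7015 genes tested for the difference between regions, 1054 (15%) had a cerebellar difference higher than that in cortex and 2291 (32.7%) a lower one, with a median of -0.46. With quantile normalization 2066 were higher and 1562 lower, so this balance depends on the scaling. Aldh1l1 separated the cell types in both regions, by 3.92 in cerebellum and 4.78 in cortex (difference between regions -0.86, SE 0.50, adjusted p = 0.13). Mbp separated them less in cerebellum, by -2.58, than in cortex, by -6.72 (4.15, SE 0.47, adjusted p = 1.2e-12), with 12.78 to 13.13 in cerebellar astrocytes and 8.15, 9.73, 10 and 8.46 in cortical ones. Of 9 genes of the Bergmann glia list, 4 had a higher cerebellar difference, 2 a lower one and 3 were not called (median 0.41). The list thus did not move as one, and Gria4, Gria1 and Wif1, given next, are all from the 4 higher ones. Gria4, an AMPA receptor subunit, differed by 4.02 in cerebellum and -5.35 in cortex, with 13.16, 13.17 and 13.17 in cerebellar astrocytes and 2.05, 2.47, 2.06 and 2.06 in cortical ones. Gria1, another AMPA subunit, differed by 4.39 in cerebellum and -1.73 in cortex. Wif1 differed by 7.01 in cerebellum, while in cortex both populations were under the minimum of 6. Sulf1, a heparan sulfatase (4.53 in cerebellum and -4.36 in cortex), and Cys1, a cilium protein (4.98 and -4.62), were higher in cerebellar astrocytes and lower in cortical ones than in the oligodendrocytes of the same region. Cacng5, an AMPA receptor auxiliary subunit, differed by 5.52 and Hpgd, which degrades prostaglandins, by 6.38 in cerebellum, while in cortex both populations were under 6 for both genes. The patterning factor Irx1 differed by 7.08 in cerebellum, and in cortex it was under 6 in both populations.

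In the other direction, Grin2c, an NMDA receptor subunit, had 4.39, 4.39 and 4.22 in cerebellar astrocytes, against 8.79, 9.56 and 9.79 in cerebellar oligodendrocytes, and 11.03, 9.87, 11.03 and 10.99 in cortical astrocytes, against 4.25, 2.66 and 2.66 in cortical oligodendrocytes. In cerebellum both populations were below unbound RNA (10.59 to 11.66), so Grin2c was not tested there. Olig2 differed by -7.35 in cerebellum and -2.17 in cortex, where astrocytes had 8.84, 7.83, 7.67 and 8.82. Eogt, a glycosyltransferase (-3.19 in cerebellum and 6.14 in cortex), Spag1 (-3.77 and 5.70) and Ifngr2, an interferon receptor chain (-6.23 and 3.02), reversed. Malat1 differed by -11.88 in cerebellum and 1.15 in cortex, where the oligodendrocyte arrays ran apart at 12.26, 4.48 and 6.53. By list, none of 24 astrocyte genes was higher in the cerebellar contrast and 12 were lower (median -1.22). Of 22 myelinating oligodendrocyte genes 10 were higher and 3 lower (median 0.96), and of 17 cholesterol synthesis genes none was higher and 12 were lower (median -1.35).

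**Figure D5:**
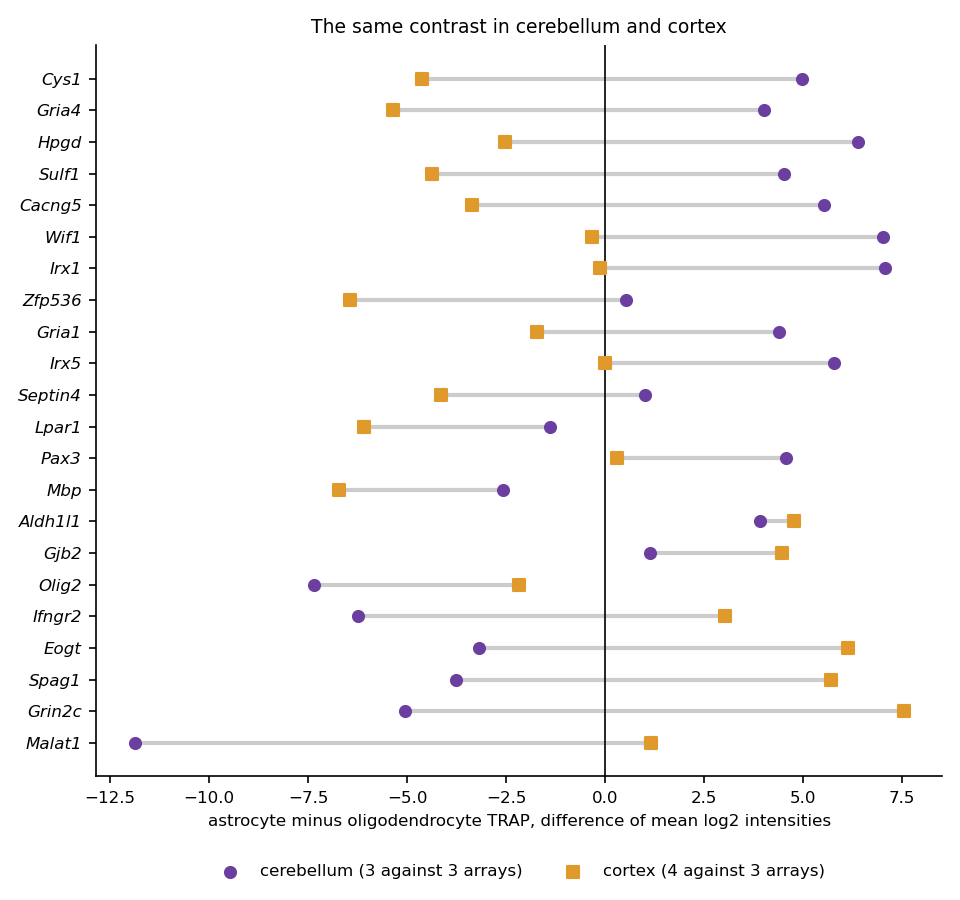
Astrocyte minus oligodendrocyte difference of mean log2 intensity (horizontal axis) for 22 genes (rows) in cerebellum (circles, 3 against 3 arrays) and cortex (squares, 4 against 3 arrays). Cys1, Gria4 and Sulf1 are positive in cerebellum and negative in cortex, Grin2c, Spag1 and Eogt the reverse, and Aldh1l1 is positive in both.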

How the data were processed

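Intensities deposited by the authors on a linear scale were used, for 45101 Affymetrix probe sets on all arrays of the series. Per the labels, 15 ng of RNA was amplified in 2 cycles. GCRMA is named in the submitters' processing notes (version not given), and the series text states that it was run within groups of replicates, which it calls independent TRAP replicates.

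Values were floored at 1, turned to log2 and shifted by 1 constant per group to an equal mean of 18 control probe sets. Of the probe sets, 34958 carry 1 symbol (34754 matched by Entrez ID), 932 several and 9211 none. The brightest probe set stood for each of 18194 genes (9012 with several). One limma 3.58.1 fit (R 4.3.3, data.table version 1.17.8) with eBayes trend covered all arrays in 30 groups, and p-values were adjusted by Benjamini-Hochberg over all genes tested. P-values rest on the spread between preparations within groups, pooled over all 30 groups. They do not measure the spread of the compared arrays alone. With the compared arrays alone, 1921 genes were higher and 770 lower in astrocytes than in oligodendrocytes of cerebellum. The procedure was tested on simulated data with independent normal noise. These lacked the identical replicate values and the outlying oligodendrocyte array of the real data, so the effect of those was not tested there. For 385 of 414 list genes a probe set was found, and the others were not analysed here.

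The comparisons, members, lists and named genes were chosen with earlier results of these data known. Named were the drivers and markers, the 12 largest called differences with non-overlapping arrays each way, of each list up to 4 called members each way and up to 2 not called, the 5 largest gains over unbound RNA, the 5 largest differences between regions each way, and the 3 brightest probe sets called in each population. Mobp, Irx3, Nr2f1, Zic1, En2 and the 3 microglial genes named singly were chosen after their values were seen. Replicate numbers did not pair the samples: deviations of same-numbered arrays correlated at 0.09, -0.13 and 0.02.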

Additional observations from a re-analysis of the deposited data

Results flagged for a closer look

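Differences between cerebellum and cortex in the astrocyte minus oligodendrocyte contrast were listed because the contrast itself differed between regions in the limma fit. This held for 1054 genes higher and 2291 lower. Among named genes the differences between regions were 4.15 for Mbp, 6.69 for Cryl1, 7.34 for Wif1, 6.12 for Gria1, 9.6 for Cys1, 9.37 for Gria4, 8.93 for Hpgd, 8.89 for Sulf1, 8.88 for Cacng5, 7.19 for Irx1, 5.77 for Irx5, 4.27 for Pax3, 4.7 for Lpar1, 5.14 for Septin4 and 6.98 for Zfp536. They were negative for Malat1 (-13.03), Grin2c (-12.59), Olig2 (-5.18), Gjb2 (-3.33), Spag1 (-9.47), Eogt (-9.34) and Ifngr2 (-9.26).

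Single arrays lay far from the rest of their group for 13 of 39 genes checked over the 7 unbound arrays (Dixon's test), and 10 of the 13 were in the array of the oligodendrocyte line. Its levels were 6.28 for Cryl1, 7.95 for Ptbp1, 4.97 for Ptprk, 7.85 for E2f5, 10.6 for Depp1, 4.63 for 1700003E16Rik, 8.56 for Gfap, 5.31 for Olig2, 11.66 for Grin2c and 16.07 for Fth1. The others were Cacng7 at 5.03 in Bergmann glia line replicate 3, Samhd1 at 6.03 in Purkinje line replicate 3 and Gjc3 at 2.81 in Purkinje line replicate 1. In cortical astrocytes 4 of 23 genes had such an array: Cryl1 at 5.52 and Cys1 at 2.98 in replicate 4, and Grin2c at 9.87 and Gria4 at 2.47 in replicate 2. At the test's 95% critical value chance flags about 5% of groups.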

How the results depend on the processing

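Calls for named genes kept their direction and side of the threshold in 3613 recomputed values, were lost in 19, gained in 27 and turned in 1 (Sc5d, 2.25 with the mean of all probe sets). List medians stayed within the replicate spread in 352 recomputed values, moved in 86 and, among medians of at least 1 in size, turned in 2, for receptor tyrosine kinases (-0.05 without oligodendrocyte replicate 3, 1.73 without replicate 2) and connexins (-0.51 with TRAP at least 1.5-fold over unbound RNA). Septin4 was not called in 5 settings (0.48 with quantile normalization, 0.72 with mean probe sets). Without a TRAP over unbound requirement, 2424 genes were higher and 2726 lower in astrocytes, and 1592 higher between regions. Quantile normalization gave 3356 higher and 2987 lower for astrocytes over unbound RNA, 1992 and 2418 for oligodendrocytes, and 2066 higher between regions. Mean probe sets gave 638 higher between regions, and a test against 2-fold (treat) 549 higher and 1042 lower. The causes were not tested.

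Leaving out 1 array gave 1552 to 2164 higher and 633 to 1321 lower between the cell types, 1661 to 1722 and 5015 to 5118 for astrocytes over unbound RNA, 732 to 1225 and 3266 to 6416 for oligodendrocytes over unbound RNA, and 761 to 1381 and 1753 to 3393 between regions. The 1321 and the 3266 came without oligodendrocyte replicate 3. With the replicate block, 1907 genes were higher and 761 lower between the cell types and 1017 and 2123 between regions, though the numbers did not pair the samples. Signal at the GCRMA minimum gives no order below a level of 6, and identical replicate values narrow the astrocyte spread.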
